A study of Mus musculus with 35 samples.

Results

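Tetraspanins are small membrane proteins that cross the membrane several times and gather integrins, other adhesion molecules and each other into patches of the cell surface and of endosomes. The transcripts of 8 of them, Cd63, Cd9, Cd81, Cd82, Cd151, Tspan3, Tspan4 and Tspan9, were followed in podocytes, the epithelial cells of the kidney filter, of mice with altered Lmx1b. The 8 genes were taken by their symbols, and each matched 1 of the 33292 rows of the expression table. Podocytes were compared between 3 genotypes, which the labels call WT, H77L and C118F, each treated with DMSO or with bortezomib (Btz). A group held 6 mice, with the exception of 5 bortezomib-treated C118F mice, and each of the 35 mice was 1 library. Mice are numbered here within their group, and a number shared by mice of different groups does not pair them.

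The WT mice were taken to be Lmx1b+/lox mice, the control genotype of the study, since the series describes its controls in this way. H77L and C118F mice carried 1 knock-in allele with an exchanged amino acid in a LIM domain of Lmx1b beside 1 floxed allele (Lmx1bH77L/lox and Lmx1bC118F/lox). All mice, controls included, also carried an rtTA transgene that is active in podocytes, the tetO::Cre transgene (LC-1) and the mT/mG reporter, which turns cells green after Cre activity. They were between 7 and 10 weeks old and drank doxycycline at 2 mg/ml for 7 days, so that the floxed Lmx1b allele was deleted in podocytes of the controls too, where it left a normal allele behind. Bortezomib, a proteasome inhibitor, was injected intraperitoneally every other day at 0.3 μg per g body weight, and DMSO was its solvent. Green cells were sorted by FACS. Whether a knock-in line goes back to more than 1 targeted stem cell clone is not given in the sources used here.

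Within the family, Cd63 is a resident of late endosomes, lysosomes and their secreted vesicles, and it can bind the protease inhibitor Timp1. Cd9 and Cd81 are close relatives that hold immunoglobulin-superfamily proteins such as Igsf8, and parietal epithelial cells of the glomerulus are known to take up Cd9 expression in injury. Cd151 binds laminin-receptor integrins, among them the podocyte integrin α3β1, and its loss in mice and humans causes a kidney disease with proteinuria. Cd82 is known as a suppressor of metastasis that limits integrin signalling, and Tspan4 marks the migrasomes that migrating cells leave behind.

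Expression was given as TPM (transcripts per 1000000), which divides by transcript length and adds up to that number in each mouse, so that levels of different genes can be set side by side. TPM holds no counts. The TPM value that corresponds to a single read on 1 kb of exon, read from the steps between low values, was between 0.151 and 0.263 in 34 mice, and 0.683 in bortezomib-treated C118F mouse 2, the shallowest library. Between 14316 and 16956 genes had a value above 0 in a mouse. Podocyte markers (12 genes such as Synpo and Podxl) were above 0 in every mouse, and their summed TPM ran from 23972 to 39165 in DMSO-treated WT mice, from 6216 to 11052 in H77L and from 5922 to 13454 in C118F mice. Lmx1b mRNA itself reached 69.6 ± 14.7 TPM (SD, n = 6) in WT, 119.5 ± 19.7 (n = 6) in H77L and 101.2 ± 49.8 (n = 6) in C118F mice under DMSO. The knock-in alleles differ in a codon and still give a transcript, so these levels are no check of the labels. Some marker sums of other cells were highest in single mice. The leukocyte sum (12 markers) was 481 TPM in WT mouse 1 under DMSO, the tubule sum (11 markers) was 2122 in WT mouse 2 under DMSO, and the endothelial (8 markers) and mesangial (6 markers) sums were 168 and 3188 in C118F mouse 1 under DMSO, where the renin gene Ren1 had 2166 TPM. For these 3 mice, values without them are given beside several results where a call or a value changed.

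The identifiers of the 8 genes in the table are ENSMUSG00000025351 (Cd63), ENSMUSG00000030342 (Cd9), ENSMUSG00000037706 (Cd81), ENSMUSG00000027215 (Cd82), ENSMUSG00000025510 (Cd151), ENSMUSG00000032324 (Tspan3), ENSMUSG00000025511 (Tspan4) and ENSMUSG00000030352 (Tspan9). In GRCm39, with positions from GENCODE vM39, Cd151 (chromosome 7, 141047256 to 141052572, plus strand) ends 2565 bases before Tspan4 (chromosome 7, 141055138 to 141073340, plus strand), and Cd81 follows on the same chromosome and strand (142606314 to 142621672). Cd9 (chromosome 6, 125437210 to 125471778) and Tspan9 (127938349 to 128136217) lie on the minus strand of one chromosome. Cd63 is on chromosome 10 (128731528 to 128748709, plus strand), Cd82 on chromosome 2 (93249455 to 93293485, minus strand) and Tspan3 on chromosome 9 (56039009 to 56072761, minus strand). The protein-coding gene Polr2l, with a mean of 68.2 TPM, overlaps the ends of Cd151 and Tspan4 on the opposite strand, and Chid1, with 11.1 TPM, overlaps Tspan4. The library kit does not mark strand, so reads from such overlaps cannot be told apart. GENCODE also lists processed pseudogenes of Cd63 and of Cd9, which were not analysed here and could share reads with their parent genes.

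The start regions of 4 members are shown because Cd63 and Cd82 rose together in the knock-in podocytes while Cd81 fell and Cd9 varied from mouse to mouse. The sequences are the RefSeq windows of 250 bases before to 50 bases after the start site, in build GRCm38.p6 and written 5′ to 3′ along the gene. For Cd82, which has 4 such windows, the first of the table is given. Cd63 is chr10:128909095-128909394 (plus strand), Cd82 chr2:93462901-93463200 (minus strand), Cd81 chr7:143052500-143052799 (plus strand) and Cd9 chr6:125494711-125495010 (minus strand), and capitals mark the GC box GGGCGG.
Cd63: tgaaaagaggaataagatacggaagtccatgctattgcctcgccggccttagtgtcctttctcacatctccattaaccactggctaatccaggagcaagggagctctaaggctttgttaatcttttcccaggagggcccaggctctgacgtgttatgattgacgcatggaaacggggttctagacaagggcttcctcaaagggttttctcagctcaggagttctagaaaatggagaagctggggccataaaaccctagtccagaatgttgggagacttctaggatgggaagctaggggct
Cd82: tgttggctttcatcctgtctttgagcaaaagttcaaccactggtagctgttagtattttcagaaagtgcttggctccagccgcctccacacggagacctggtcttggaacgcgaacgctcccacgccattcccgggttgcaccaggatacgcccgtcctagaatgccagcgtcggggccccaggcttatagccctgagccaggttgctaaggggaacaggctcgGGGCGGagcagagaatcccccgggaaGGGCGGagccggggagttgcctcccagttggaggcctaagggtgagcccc
Cd81: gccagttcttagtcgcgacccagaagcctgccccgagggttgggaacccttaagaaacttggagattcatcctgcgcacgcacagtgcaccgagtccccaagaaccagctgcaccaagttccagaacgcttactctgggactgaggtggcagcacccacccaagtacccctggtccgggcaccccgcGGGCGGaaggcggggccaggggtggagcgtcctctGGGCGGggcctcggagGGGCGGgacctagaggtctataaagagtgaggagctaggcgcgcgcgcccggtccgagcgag
Cd9: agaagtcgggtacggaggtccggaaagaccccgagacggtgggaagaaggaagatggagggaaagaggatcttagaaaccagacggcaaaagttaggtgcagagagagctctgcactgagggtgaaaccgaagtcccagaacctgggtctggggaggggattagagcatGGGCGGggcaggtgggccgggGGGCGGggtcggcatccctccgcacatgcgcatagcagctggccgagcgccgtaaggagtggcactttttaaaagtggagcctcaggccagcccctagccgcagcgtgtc
The Cd63 window held no GC box on either strand (GGGCGG or CCGCCC) and was 49.3% G and C. Those of Cd82, Cd81 and Cd9 held 2, 3 and 2 and were 60.7%, 65.7% and 61.3% G and C. The other Cd82 windows, not printed, held 1, 0 and 0 and were 64.7%, 49.3% and 53% G and C, so the Cd82 value depends on the window taken. Of the 32851 RefSeq windows of this length, 35.7% held at least 1 GC box, and the median G and C content was 52.7%. The letters TAATTA, a core that homeodomain proteins can bind, were in none of the 16 windows of the 8 members and in 5.29% of all windows. CACGTG, an E-box on both strands, was in 1 of the 16, a Tspan4 window, and in 7.15% of all. These matches describe letters and say nothing of binding.

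Under DMSO, Cd81 was the leading tetraspanin of WT podocytes with 3807 ± 302 TPM (SD, n = 6), which placed it 19th of the 10357 genes with more than 1 TPM in all mice of the group. Cd82 (779 ± 42.3 TPM), Cd151 (708 ± 70.8), Tspan3 (520 ± 67.2), Cd63 (227 ± 55.6), Tspan4 (118.3 ± 20.5), Cd9 (21.6 ± 25.3) and Tspan9 (9.49 ± 3.81) followed. The ranges of Cd82 and Cd151 overlapped, as did those of Cd151 and Tspan3 and of Cd9 and Tspan9, so that the order of these neighbours was within the spread of the mice. Summed over all 31 tetraspanin genes of the table, expression was 9504 ± 669 TPM in WT, 9781 ± 598 in H77L and 10666 ± 958 in C118F mice. The makeup of this sum was another one in the knock-in podocytes. Cd81 made up 40.1% of it in WT, 26% in H77L and 24.1% in C118F mice, and Cd63 2.39%, 10.2% and 12.6%. Under bortezomib the Cd81 share was 38.1%, 27.7% and 24.1%, and the Cd63 share 2.36%, 7.20% and 11.7%, in the same order of genotypes. Without the 3 mice with high marker sums, under DMSO, the Cd81 share was 40% in WT and 24.6% in C118F mice and the Cd63 share 2.06% and 11.1%. In C118F podocytes under DMSO, Cd63 stood 79th among 10414 genes, against a place of 788 in WT podocytes.

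**Figure D1:**
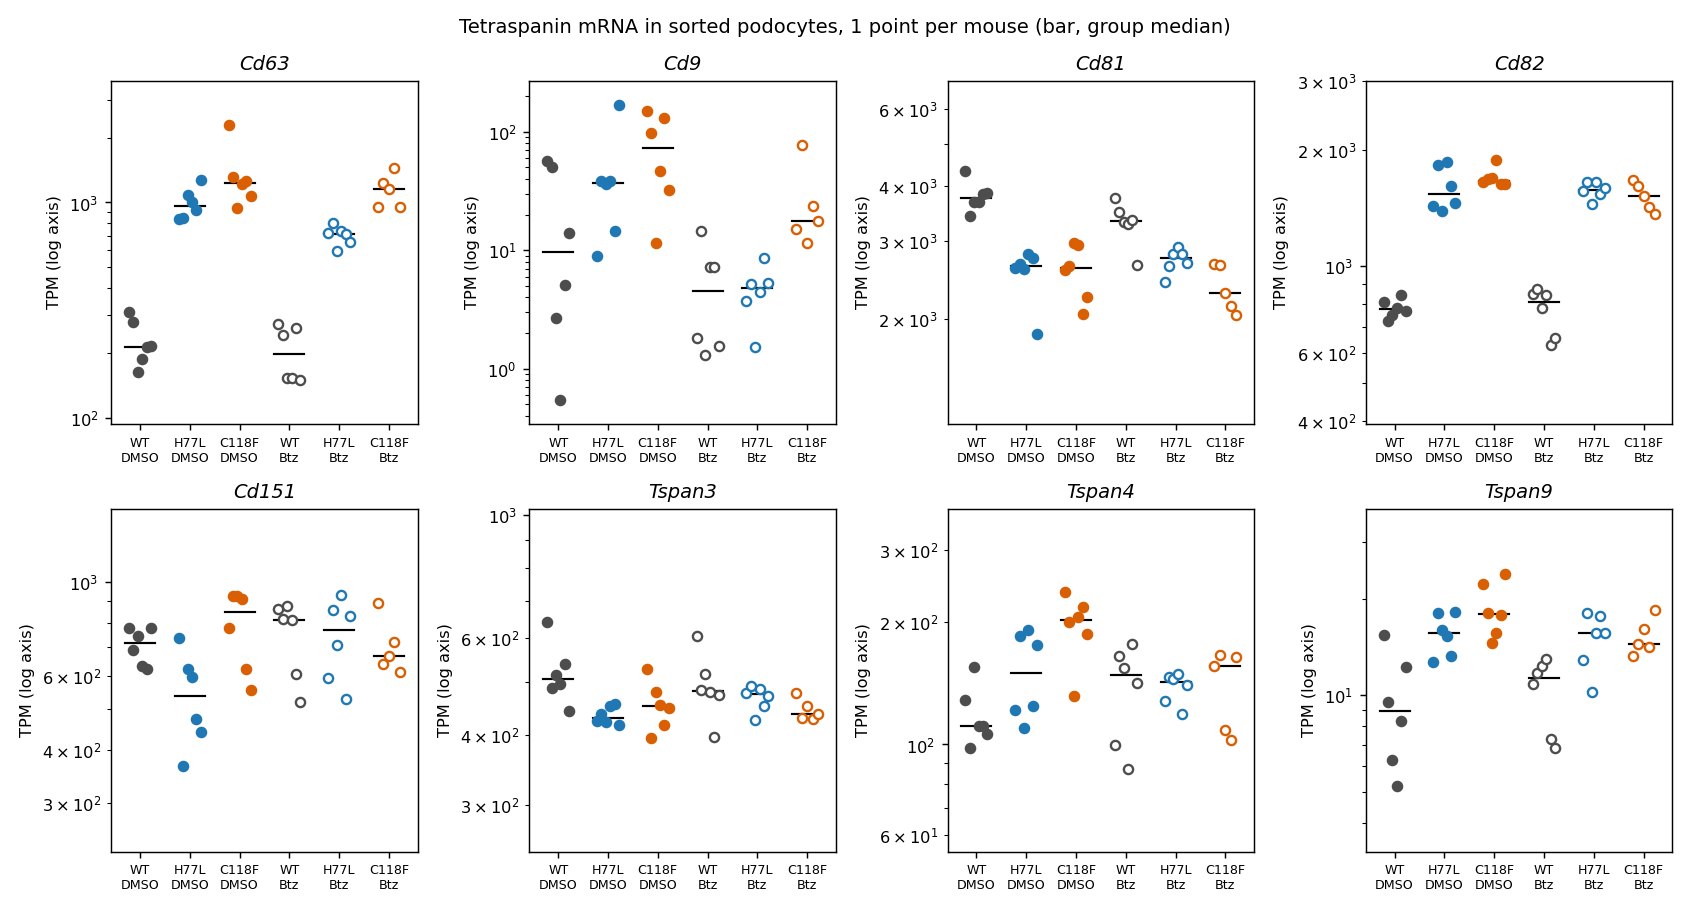
TPM of each of the 8 tetraspanins on a log axis, 1 point per mouse, for WT (grey), H77L (blue) and C118F (orange) mice under DMSO (filled) and bortezomib (open), with a bar at the group median. Cd63 and Cd82 of the knock-in mice lie above those of every WT mouse under the same treatment, and Cd9 spreads from 0.547 to 57.0 TPM among WT mice under DMSO.

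Each of the 12 comparisons was fitted across all genes that had more than 1 TPM in every mouse of at least 1 group compared, by limma, on a scale of log2(TPM + 1), with Benjamini-Hochberg adjustment over every gene tested. Every fold change given is on this scale, which understates the change of low genes. All 8 members passed the filter in all 12 comparisons, but Cd9 did so through groups other than DMSO-treated WT mice, where 1 mouse had less than 1 TPM. In H77L podocytes under DMSO, 3 of the 8 members were higher than in WT and 3 lower at an adjusted p under 0.05, where 22.4% of the 10964 genes tested were higher and 22.4% lower. C118F podocytes under DMSO had 5 members higher and 1 lower, against 13.7% and 16.6% of 10899 genes. The median log2 fold change of the 8 members was 0.53 in H77L and 0.84 in C118F mice, and that of all genes was -0.01 and -0.06. With a stricter pair of cutoffs (adjusted p below 0.001, and a log2 fold change beyond 2 either way) Cd63 was the 1 member that passed in either line, as did 2.17% of all genes in H77L and 2.27% in C118F mice. The study had placed Cd63 among the genes changed under DMSO in these same mice, by these cutoffs. Its pass was thus known beforehand and is no independent support. Ranges that did not overlap the WT range were found for 3 members in both lines (Cd63 and Cd82 above, Cd81 below), against 21.1% of genes in H77L and 13.7% in C118F mice. Both lines were compared with the same WT mice, so their values are not independent.

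**Figure D2:**
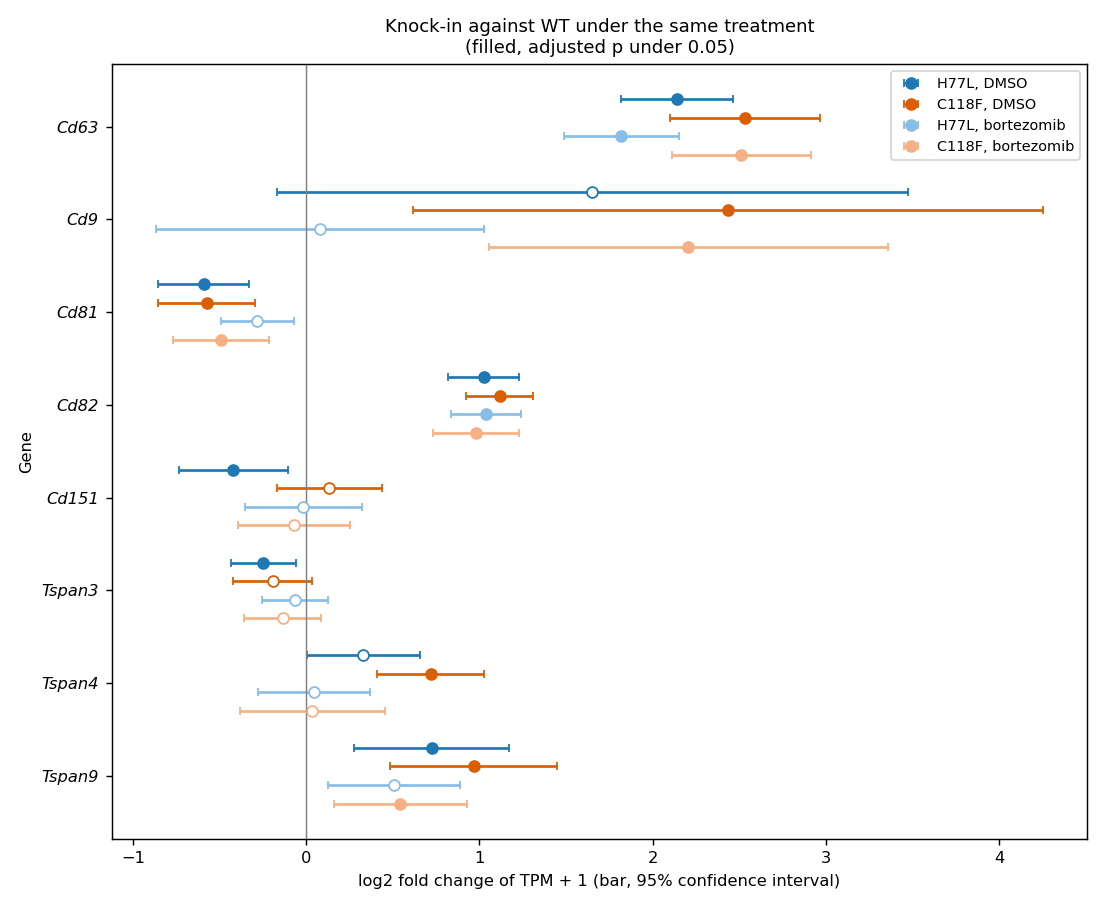
The log2 fold change of TPM + 1 of knock-in against WT mice under the same treatment for the 8 tetraspanins (horizontal axis), with 95% confidence intervals from limma and filled points for an adjusted p under 0.05. Cd63 and Cd82 were higher in all 4 comparisons, and the intervals of Cd9 were the widest.

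Cd63, the endosomal tetraspanin, rose the most among the members that passed in both lines. In DMSO-treated WT mice it ran from 163 to 310 TPM with a median of 214, in H77L mice from 836 to 1275 with a median of 963, and in C118F mice from 940 to 2293 with a median of 1237. Every knock-in mouse had more than 2 times the Cd63 of any WT mouse. Its log2 fold change was 2.14 (SE 0.15, limma adjusted p = 9.61e-08), a 4.41-fold rise, in H77L and 2.53 (SE 0.20, adjusted p = 5.03e-07), a 5.79-fold rise, in C118F mice. The highest value, 2293 TPM, was that of C118F mouse 1, which also had the highest endothelial and mesangial marker sums, and the next was 1307. Without that mouse and the WT mice with the highest leukocyte and tubule sums, a choice made after seeing the data, the log2 fold changes were 2.34 in H77L and 2.57 in C118F mice. The mesangial sum was higher in both lines as a whole, from 591 to 972 TPM in H77L and from 628 to 3188 in C118F against 37.6 to 157 in WT mice under DMSO. Of its 6 markers 3 were tested and 2 were higher in each line, where 22.4% of all genes were higher in H77L and 13.7% in C118F mice. Pdgfrb was at a mean of 14.4 TPM in WT, 247 in H77L and 154 in C118F mice and Des at 34.8, 465 and 578. Acta2, also tested, was at means of 16.4, 50.9 and 98.3 TPM and did not pass. It was at 0 in 1 of the 6 WT mice and met the filter only through the knock-in mice, in which its mean was higher. Acta2 passed only without the 3 mice with high marker sums, by 2.97 (limma adjusted p = 0.0236) in H77L and 2.84 (adjusted p = 0.0358) in C118F mice. The markers not tested did not follow as a set, with Gata3 at 1.08, 0.223 and 0.859 TPM and Itga8 at 0.111, 0.234 and 0.735. Ren1 was at 8.05 TPM in WT and 5.59 in H77L mice, and it reached 2166 TPM in C118F mouse 1. The part of the mesangial sum in the Cd63 result was not tested. In a bulk sample, more cells of a kind and more RNA per cell cannot be told apart.

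Cd63 stayed high under bortezomib. Bortezomib-treated WT mice ran from 149 to 274 TPM (median 197) and H77L mice from 598 to 802 (median 717), and the C118F mice had 954, 1237, 1151, 1445 and 954 TPM. Again no knock-in mouse fell into the WT range. Against WT, the log2 fold change was 1.82 (SE 0.16, adjusted p = 4.04e-07) in H77L and 2.51 (SE 0.19, adjusted p = 2.74e-07) in C118F mice. In the order of mean levels, C118F mice under DMSO (1347 ± 483 TPM, SD, n = 6) came first, followed by C118F under bortezomib (1148 ± 207, n = 5), H77L under DMSO (993 ± 167, n = 6), H77L under bortezomib (704 ± 70.9, n = 6), WT under DMSO (227 ± 55.6, n = 6) and WT under bortezomib (205 ± 59.6, n = 6). The ranges of the first 3 groups overlapped one another, and so did those of the 2 WT groups.

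Cd9 was the least even of the members. The 6 DMSO-treated WT mice ran from 0.547 to 57.0 TPM (median 9.57), the H77L mice from 8.91 to 167 (median 37.1) and the C118F mice from 11.4 to 151 (median 72.1). The SD was 117% of the mean in WT, 116% in H77L and 72.3% in C118F mice, and all 3 ranges overlapped. WT mice 1 and 2, with 57.0 and 50.1 TPM, stood above the other 4, which reached at most 14.1 TPM. The log2 fold change was 1.65 (SE 0.85, limma adjusted p = 0.129) in H77L mice, with a 95% interval from -0.17 to 3.48, and 2.43 (SE 0.85, adjusted p = 0.0425) in C118F mice. The C118F call passed in 4 of the 12 fits that left out 1 mouse. It was lost (adjusted p from 0.0547 to 0.0947) without WT mouse 3, 4, 5 or 6 or C118F mouse 1, 2, 4 or 5, and also when low genes were not filtered or when mouse number entered as covariate. In H77L mice Cd9 passed without WT mouse 1 (adjusted p = 0.0486). WT mice 1 and 2 were the ones with the highest leukocyte and tubule sums and also held the highest Cd9 values of their group. Leaving them out together with C118F mouse 1 was a choice made after seeing the data. The fold changes were then 2.82 (adjusted p = 0.0085) in H77L and 3.33 (adjusted p = 0.0049) in C118F mice. Removing the WT mice with the most Cd9 raises these values by itself, so they do not firm up either call.

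The markers of other cells were set beside Cd9 in each group. The leukocyte sum ranged from 6.97 to 481 TPM in WT, from 15.8 to 80.9 in H77L and from 13.8 to 121 in C118F mice under DMSO. Ptprc, the pan-leukocyte gene, was at 0 in 24 of the 35 mice and at 0.241 TPM at most. Other leukocyte markers went both ways, with means of 4.17, 11.6 and 8.21 TPM for Csf1r and 61.9, 3.05 and 1.24 for Lyz2. In H77L mice 3 of the 12 were tested, with 1 higher and 0 lower. In C118F mice 4 were tested, with 1 higher and 1 lower. Over all genes, 22.4% were higher and 22.4% lower in H77L and 13.7% and 16.6% in C118F mice. The same shares are the background of the parietal counts below. The tubule sum ranged from 40.7 to 2122, from 14.2 to 879 and from 8.05 to 289 TPM. Parietal epithelial markers (7 genes) summed to 53.8 to 114 TPM in WT, 120 to 252 in H77L and 90.7 to 178 in C118F mice, and 2 of the 3 tested were higher in each line. Without the 3 mice with high marker sums, Ncam1 also passed in H77L mice, with a log2 fold change of 0.39 (limma adjusted p = 0.0378). Cldn1 was at a mean of 24.3 TPM in WT, 104 in H77L and 84.6 in C118F mice and Pax8 at 13.8, 27.1 and 26.2, while Krt8 was at 5.02, 1.08 and 0.261 TPM and Krt18 at 10.1, 1.46 and 0.206, and Pax2 was at 0 in 25 of 35 mice. H77L mouse 6, which had the 167 TPM of Cd9, had the highest parietal sum of all mice and the lowest podocyte sum of its group (6216 TPM). Their part in the Cd9 levels was not tested.

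Under bortezomib Cd9 was higher than WT in C118F mice and passed no test in H77L mice. WT mice ran from 1.3 to 14.6 TPM (median 4.52) and H77L mice from 1.52 to 8.55 (median 4.83), and the C118F mice had 15.1, 76.8, 11.4, 23.7 and 17.8 TPM. The H77L mice lay within the WT range, and 4 of the 5 C118F mice lay above it. The C118F value was higher than WT by a log2 fold change of 2.21 (SE 0.54, adjusted p = 0.0072), and the H77L difference was 0.08 (adjusted p = 0.928, interval from -0.87 to 1.02). The 76.8 TPM came from the shallowest library, and the call held without that mouse, as in all 11 fits that left out 1. The WT mouse with 14.6 TPM had the highest tubule sum of its group, 870 TPM.

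Cd81, the most abundant member, moved the other way. DMSO-treated WT mice ran from 3421 to 4332 TPM (median 3766), H77L mice from 1849 to 2803 (median 2635) and C118F mice from 2053 to 2982 (median 2615). All knock-in mice were below all WT mice. This was a log2 fold change of -0.59 (SE 0.12, adjusted p = 0.0015) in H77L and -0.57 (SE 0.13, adjusted p = 0.0044) in C118F mice, or 0.664-fold and 0.672-fold of the WT level. Each call held in every fit that left out 1 mouse and in all 7 other settings. Under bortezomib the ranges met, with 2645 to 3766 TPM in WT, 2424 to 2914 in H77L and 2038 to 2668 in C118F mice. The C118F difference was -0.49 (SE 0.13, adjusted p = 0.0112), and the H77L difference of -0.28 (SE 0.10) missed the threshold at an adjusted p of 0.0515 and passed without WT mouse 6 (adjusted p = 0.0083). The C118F call under bortezomib was lost when low genes were not filtered or when mouse number entered as covariate.

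Cd82, the integrin-restraining member, was the most even of those that rose. DMSO-treated WT mice ran from 724 to 842 TPM (median 776), H77L mice from 1392 to 1859 (median 1536) and C118F mice from 1628 to 1876 (median 1662). The groups were far apart, and the SD was 5.43% of the mean in WT, 12.8% in H77L and 5.55% in C118F mice. The log2 fold changes were 1.03 (SE 0.10, adjusted p = 1.44e-06) and 1.12 (SE 0.09, adjusted p = 5.57e-07). Bortezomib-treated mice showed the same picture, with 628 to 872 TPM in WT, 1445 to 1650 in H77L and 1362 to 1674 in C118F mice, and log2 fold changes of 1.04 (SE 0.09, adjusted p = 7.77e-07) and 0.98 (SE 0.12, adjusted p = 2.25e-05). Both knock-in lines therefore held about 2.04-fold and 2.17-fold the WT level under DMSO and 2.05-fold and 1.98-fold under bortezomib. All 4 calls held in every alternative setting and every fit without 1 mouse.

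Cd151, the partner of integrin α3β1, ranged from 621 to 780 TPM (median 717) in WT, from 367 to 738 (median 536) in H77L and from 556 to 929 (median 847) in C118F mice under DMSO. H77L mice were lower on average and C118F mice spread to both sides of the WT range. The difference from WT was -0.42 (SE 0.15, adjusted p = 0.0310) in H77L and 0.13 (SE 0.14, adjusted p = 0.513) in C118F mice. The H77L call was lost without WT mouse 1, 3 or 6 or H77L mouse 2, 5 or 6 (adjusted p from 0.0569 to 0.0665), without the filter on low values and without the mice with high marker sums. When mouse number entered as covariate, C118F mice passed with 0.35 (adjusted p = 0.0364). Between the lines, C118F mice were higher by 0.55 (SE 0.18), which did not pass (adjusted p = 0.931). With bortezomib the group means were 749 ± 149, 743 ± 159 and 707 ± 112 TPM in WT, H77L and C118F mice, and neither line passed against WT.

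Tspan3, a widely expressed tetraspanin, differed little. It ranged from 442 to 640 TPM in WT, from 418 to 456 in H77L and from 395 to 526.3 in C118F mice under DMSO. H77L values lay in the lower part of the WT range or below it. Its log2 fold change was -0.25 (SE 0.09, adjusted p = 0.0323) in H77L and -0.19 (SE 0.11, adjusted p = 0.188) in C118F mice, and the H77L call was lost without WT mouse 1, 3 or 5 or H77L mouse 1, 3 or 6 (adjusted p from 0.0507 to 0.0636) and in 4 of 7 other settings.

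Tspan4 was higher than WT in C118F mice, and Tspan9 in both lines. Tspan4 ran from 98.2 to 155 TPM (median 111) in WT, from 110 to 191 (median 150) in H77L and from 132 to 237 (median 203) in C118F mice under DMSO. Of the C118F mice, 5 were above every WT mouse. Its log2 fold change was 0.72 (SE 0.14, adjusted p = 0.0018) in C118F and 0.33 (SE 0.15, adjusted p = 0.0908) in H77L mice and passed there without WT mouse 3 or H77L mouse 3 (adjusted p from 0.0381 to 0.0412). With bortezomib, Tspan4 means were 137 ± 36.0 TPM in WT, 138 ± 11.9 in H77L and 139 ± 31.0 in C118F mice, and neither line passed against WT.

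Tspan9, the least abundant member, had 5.21 to 15.4 TPM (median 8.90) in WT, 12.7 to 18.2 (median 15.6) in H77L and 14.6 to 23.8 (median 17.9) in C118F mice under DMSO. Apart from WT mouse 1 with 15.4 TPM, the WT mice were below all knock-in mice. It changed by 0.72 on the log2 scale (SE 0.21, adjusted p = 0.0120) in H77L and 0.97 (SE 0.23, adjusted p = 0.0052) in C118F mice, and the H77L call was lost when mouse number entered as covariate (adjusted p = 0.102). Under bortezomib it was 0.51 (SE 0.18, adjusted p = 0.0504) in H77L and 0.54 (SE 0.18, adjusted p = 0.0366) in C118F mice, whose 13.2 to 18.5 TPM lay above the WT range of 6.85 to 12.9. That C118F call was lost without WT mouse 5 or 6 or C118F mouse 2, 3, 4 or 5 (adjusted p from 0.0542 to 0.0876), and when low genes were not filtered or mouse number entered as covariate. The H77L value passed without WT mouse 3 or 4 or H77L mouse 3 (adjusted p from 0.0222 to 0.0458) and in 3 of 7 other settings.

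Counted over the members, 2 of 8 members were higher and none was lower in H77L than in WT mice under bortezomib, where 12.5% of the 10805 genes tested were higher and 11% lower. In C118F mice under bortezomib 4 members were higher and 1 lower, against 15.1% and 12.4% of 10916 genes. Ranges lay apart for 2 members in H77L and 3 in C118F mice, against 12.1% and 15.7% of genes. The stricter cutoffs were passed by no member in H77L, where 1.2% of genes passed, and by Cd63 in C118F mice, where 1.93% did. The Cd63 value of H77L mice lay under the log2 limit of 2.

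The bortezomib groups asked what inhibition of the proteasome changes in podocytes of each genotype, and each genotype was therefore compared with and without the drug. In H77L mice 2 members were lower with bortezomib and none was higher, against 0.74% and 0.416% of 10813 genes. Cd63 fell from a range of 836 to 1275 TPM to one of 598 to 802, a log2 fold change of -0.49 (SE 0.11, adjusted p = 0.0437), or 0.714-fold of the DMSO level. Cd9 fell from 8.91 to 167 TPM to 1.52 to 8.55, a log2 fold change of -2.65 (SE 0.52, adjusted p = 0.0352), or 0.16-fold. For both genes all bortezomib-treated mice were below all DMSO-treated ones, as in 2.38% of all genes. The summed podocyte markers of the same mice ran from 6216 to 11052 TPM under DMSO and from 11167 to 15374 under bortezomib, with none of the 12 passing, and the mesangial sum from 591 to 972 and from 398 to 599, with 1 of 3 tested lower (Des). Their part in the fall of Cd63 and Cd9 was not tested. Both calls stood close to the threshold. Cd63 passed in 4 and Cd9 in 5 of the 12 fits that left out 1 mouse, with adjusted p-values of at most 0.215 and 0.112 over all alternatives, and both were lost without the filter on low values and with all 35 mice in 1 fit. Left out alone, each of H77L mice 2, 3 and 4 under DMSO and of H77L mice 2, 3, 4 and 6 under bortezomib ended both calls, and H77L mouse 5 under bortezomib ended that of Cd63.

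No member passed in WT mice, where 0% of 10659 genes passed and 8.66% had an unadjusted p under 0.05, nor in C118F mice, where 0% of 10814 genes passed and 5.86% had an unadjusted p under 0.05. In WT mice the change with bortezomib was -0.16 (SE 0.19, adjusted p = 0.793) for Cd63 and -1.07 (SE 0.80, adjusted p = 0.687) for Cd9, and without the mice with high marker sums it was 0.03 and 0.10. In C118F mice it was -0.19 (SE 0.20, adjusted p = 0.859) for Cd63 and -1.30 (SE 0.62, adjusted p = 0.813) for Cd9, and Tspan4 was lower by 0.50 (SE 0.17, adjusted p = 0.784). The difference between the lines in the response itself was -0.30 for Cd63 (H77L minus C118F, 95% interval from -0.78 to 0.18, adjusted p = 0.713) and -1.35 for Cd9 (-3.16 to 0.47, adjusted p = 0.675). Against the response of WT mice, that of H77L mice differed by -0.32 for Cd63 (adjusted p = 0.470) and by -1.57 for Cd9 (adjusted p = 0.427). None of the 8 members passed in any of the 3 tests of a difference between responses, in which 0% of genes passed and 7.6% (H77L against C118F), 18.2% (H77L against WT) and 5% (C118F against WT) had an unadjusted p under 0.05. A response of H77L mice that differs from the others was thus not shown.

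**Figure D3:**
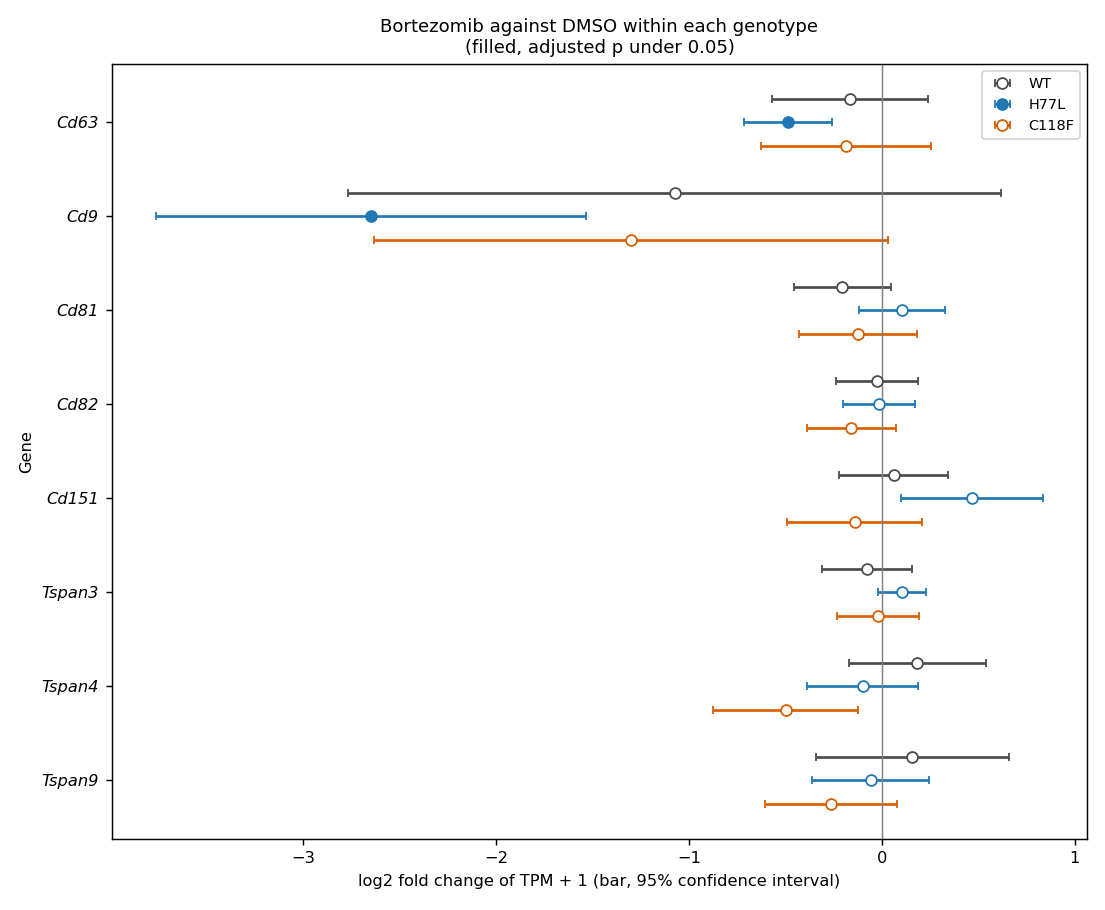
The log2 fold change of TPM + 1 of bortezomib against DMSO within WT (grey), H77L (blue) and C118F (orange) mice for the 8 tetraspanins (horizontal axis), with 95% confidence intervals from limma and filled points for an adjusted p under 0.05. The filled points are those of Cd63 (-0.49) and Cd9 (-2.65) in H77L mice.

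The knock-in lines were then set against each other. Under DMSO none of the 8 members passed, as 0% of 10809 genes did, while 3.85% had an unadjusted p under 0.05. Cd63 was higher in C118F mice by 0.39 (SE 0.19, adjusted p = 0.931, 95% interval from -0.01 to 0.79) and Cd9 by 0.78 (SE 0.68, adjusted p = 0.931). Under bortezomib, 2 members were higher in C118F than in H77L mice and none was lower, against 0.713% and 0.259% of 10803 genes. Cd63 differed by 0.69 (SE 0.12, adjusted p = 0.0145) and Cd9 by 2.13 (SE 0.41, adjusted p = 0.0238). The lowest C118F mouse had 954 TPM of Cd63 and 11.4 TPM of Cd9, above the highest H77L mouse with 802 and 8.55, a separation seen in 2.11% of genes. The Cd63 call held in all 11 fits without 1 mouse and the Cd9 call in 7, the exceptions being H77L mice 2, 4 and 6 and C118F mouse 4 (adjusted p from 0.0516 to 0.0741). Both were lost without the filter on low values and with all 35 mice in 1 fit, and that of Cd63 also when mouse number entered as covariate. Cd82 and Tspan9 did not pass between the lines under bortezomib, with 95% intervals of the difference from -0.23 to 0.13 and from -0.29 to 0.36.

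The rest of the family showed changes in both directions. Of 23 other tetraspanin genes, all with a row in the table, 14 were tested under DMSO, of which 2 were higher and 7 lower in H77L and 2 higher and 6 lower in C118F mice, with medians of -0.16 and -0.07 on the log2 scale. Over all genes, as given above, 22.4% were higher and 22.4% lower in H77L and 13.7% and 16.6% in C118F mice, and these shares are the background of each list that follows. Without the 3 mice with high marker sums, 2 were higher and 4 lower in H77L and 1 higher and 4 lower in C118F mice, and Tspan32 no longer passed in H77L mice (adjusted p = 0.0904). Tspan6 rose by 1.64 (SE 0.14, adjusted p = 6.2e-07) and 1.40 (SE 0.19, adjusted p = 6.28e-05), from a mean of 114 TPM in WT to 357 in H77L and 311 in C118F mice. Tspan11 fell by 2.07 and 2.21, from 4.95 TPM to 0.436 and 0.262, values at which the fold change depends on the added 1. Tspan12, a helper of Norrin and Wnt receptors, fell by 0.49 and 0.51 and Tspan32 by 0.73 and 1.00. Tspan13 and Tspan2 were abundant without a passing change, with 997 and 773 TPM in WT and 1207 and 735 TPM in H77L mice.

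Among the TspanC8 tetraspanins and the sheddases Adam10 and Adam17 (8 genes, 7 tested), 1 was higher and 1 lower in each line. Tspan15 fell by 0.66 (SE 0.11, adjusted p = 0.00032) in H77L and by 0.50 (SE 0.12, adjusted p = 0.0048) in C118F mice, and Tspan5 rose by 0.42 and 0.39, where the C118F call was lost without the 3 mice (adjusted p = 0.0672). Both are also counted among the other tetraspanins. They escort Adam10, whose own change was 0.20 (adjusted p = 0.106) and 0.00 (adjusted p = 0.995). Of 3 immunoglobulin-superfamily partners with a row, 1 was tested. Igsf8, the partner of Cd9 and Cd81, fell by 0.38 (adjusted p = 0.0441, and 0.132 without the 3 mice) in H77L mice and had a change of -0.11 (adjusted p = 0.587) in C118F mice.

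Partners of the members on the cell surface were tested next. Of 5 genes for laminin-binding integrins 3 were tested and 2 passed as higher in each line. Itgb1, the β1 chain, rose from 1930 TPM in WT to 5078 in H77L and 4892 in C118F mice, by 1.40 (SE 0.11, adjusted p = 3.23e-07) and 1.31 (SE 0.17, adjusted p = 4.44e-05), and Itga7 rose from 0.588 to 41.2 and 44.6 TPM. Itga7 passed the filter only through the knock-in mice in which it is high, and at the WT level its fold change depends on the added 1. Itga3, whose protein pairs with Cd151, had changes of 0.21 (adjusted p = 0.288) and 0.08 (adjusted p = 0.779). Of 13 other surface partners 7 were tested, with 5 higher in H77L, 4 in C118F and none lower. Hbegf, the growth factor precursor that Cd9 binds, rose by 2.83 (SE 0.27) and 2.76 (SE 0.22), Timp1, the ligand of Cd63, by 3.21 (SE 0.74) and 4.13 (SE 0.68), and Cd44 by 2.02 and 2.80. WT mouse 1 held 39.4 TPM of Timp1 and 4.23 of Cd44, against 6.34 and 0.629 in the next WT mouse, and without the 3 mice Timp1 rose by 3.46 and 4.13 and Cd44 by 2.37 and 3.02. Cd44, like Itga7, passed the filter only through the knock-in mice. Cd47 rose by 0.72 and 0.93, and Mmp14 rose by 0.73 (adjusted p = 0.0347) in H77L mice and had a change of 0.47 (adjusted p = 0.208) in C118F mice, which became 0.77 (adjusted p = 0.0181) without the 3 mice.

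Endosome and exosome genes, the setting in which Cd63 works, were taken as a list of 18, of which 15 were tested in H77L and 14 in C118F mice. In H77L mice 8 were higher and 1 lower, and in C118F mice 5 were higher and 1 lower, with medians of 0.25 in both, against the 22.4% of all genes called in each direction in H77L mice and 13.7% higher and 16.6% lower in C118F mice. Without the 3 mice 6 were higher and 1 lower in H77L and 4 higher and 1 lower in C118F mice. Lamp1, a glycoprotein of lysosome membranes, rose by 0.64 (SE 0.11, adjusted p = 0.00033) and 0.67 (SE 0.13, adjusted p = 0.0011), and Lamp2 by 0.45 and 0.49. Pdcd6ip, which encodes the ESCRT partner Alix, rose by 0.60 and 0.50. Ap3d1, a subunit of the adaptor that routes Cd63 to lysosomes, rose by 0.68 (SE 0.09) in H77L mice and had a change of 0.37 (adjusted p = 0.210) in C118F mice. Ap2m1, a subunit of the clathrin adaptor of the plasma membrane, fell by 0.33 and 0.31.

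**Figure D4:**
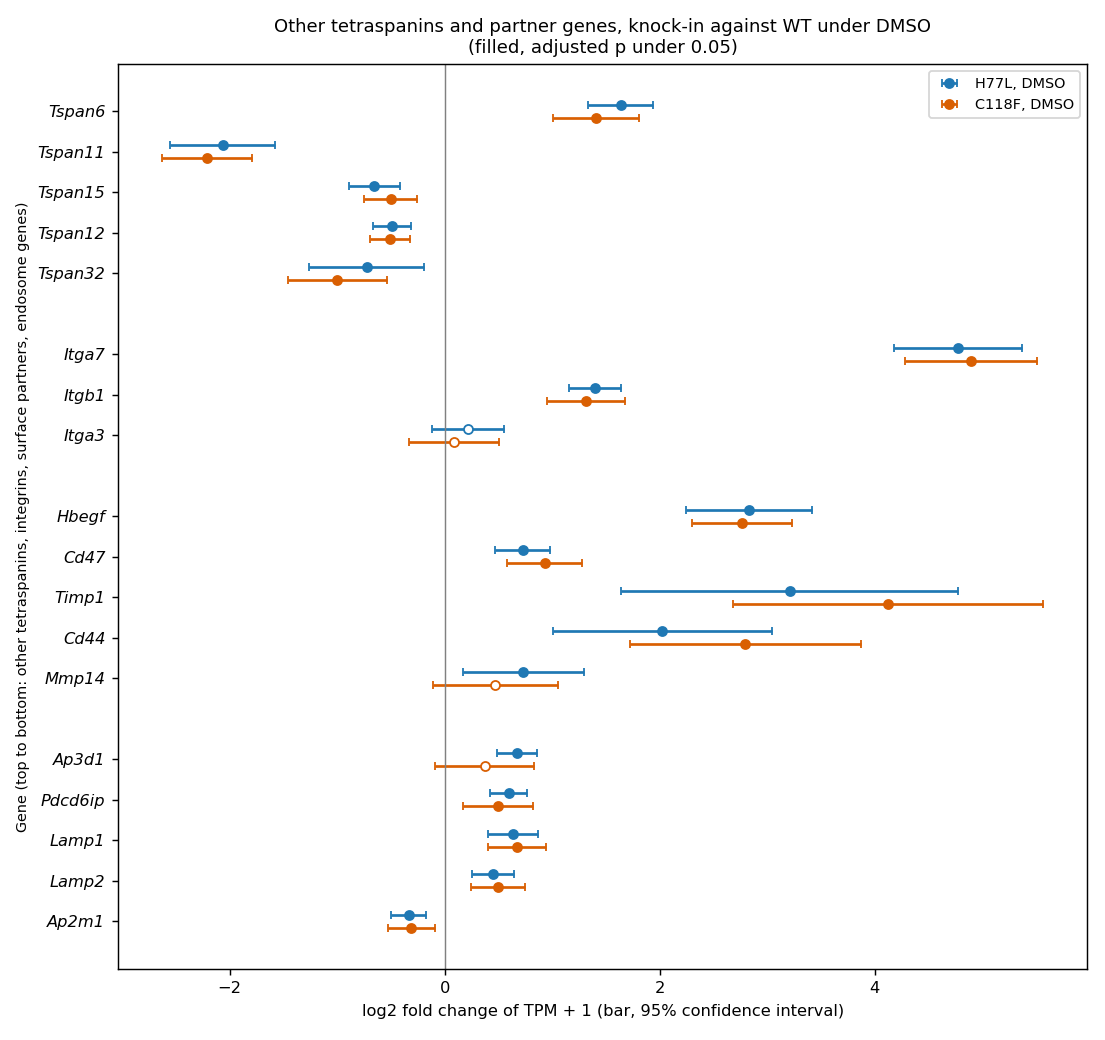
The log2 fold change of TPM + 1 of H77L (blue) and C118F (orange) against WT mice under DMSO (horizontal axis) for at most 5 genes a list with the lowest adjusted p (from top to bottom other tetraspanins, laminin-binding integrins, other surface partners, and endosome and exosome genes), with 95% confidence intervals from limma and filled points for an adjusted p under 0.05. Itga7 lies farthest to the right at 4.78 and 4.89 and Tspan11 farthest to the left at -2.07 and -2.21. Itga7 is low in WT and Tspan11 in knock-in mice, so both fold changes depend on the added 1.

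Genes with the profile most like that of a member were sought by the root-mean-square difference of log2(TPM + 1), each gene centred on its own mean, over all 35 mice and 11306 genes. For Cd63, whose own profile had a root-mean-square deviation of 1.14, the closest were Uap1l1 (0.31), Gmpr (0.35), Prnp (0.37), Rragd (0.37) and Cavin3 (0.37), where the median gene lay 1.2 away. Prnp, which encodes the prion protein, went from 469 ± 83.0 TPM in WT to 1684 ± 225 in H77L and 1945 ± 318 in C118F mice under DMSO, and was at 453 ± 53.6, 1150 ± 151 and 1522 ± 168 under bortezomib. Uap1l1 was at 30.2, 144 and 168 TPM under DMSO and at 30.4, 103 and 177 under bortezomib. For Cd9, with a deviation of 1.83 and a median distance of 1.88, the closest were Cav1 (0.79), Sgms2 (0.94), Cd44 (0.94), Tinagl1 (0.95) and Cav2 (0.98). Cav1, which encodes the coat protein of caveolae, was at 6.81 ± 8.04 TPM in WT, 38.1 ± 41.8 in H77L and 52.4 ± 41.1 in C118F mice under DMSO, and at 2.64, 3.0 and 8.32 TPM under bortezomib. All these profiles share the mice and their depth, and the distances are descriptions.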

How the data were processed

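RNA of podocytes sorted from 35 mice was amplified with a SMART-Seq mRNA kit and sequenced from a single end. Per the study's methods, reads were trimmed with Trim Galore (0.6.7 in the submitters' processing notes), aligned with STAR to GRCm39 with Ensembl 110 annotation, where a read that fit up to 20 places was reported at 1 of them at random, and counted with featureCounts (1.6.3). The authors deposited TPM values, whose computation from the counts and strand setting are not given in the sources used here. Reads from identical copies of a gene are therefore shared at random. Depth was read from the steps between low TPM values. Of 33292 rows, 32776 were named from GENCODE vM39.

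Values were tested as log2(TPM + 1) with limma 3.58.1 in R 4.3.3, with a mean-variance trend and no covariate, within the groups compared, over genes with more than 1 TPM in every mouse of a group. A gene passed at a Benjamini-Hochberg adjusted p under 0.05. The stricter cutoffs are those of the study's methods. The p-values measure the spread between single mice. The fit was tested on simulated data, with normal noise and the same spread in both groups. The real groups differ in spread, so that test does not cover uneven genes such as Cd9. Alternatives were a pseudocount of 0.1, no filter, median centring, quantile normalization, all mice in 1 fit, the mouse number as a covariate, each mouse left out, and, chosen after seeing the data, 3 mice with high marker sums left out. The mouse number is that of the labels, which do not say what it stands for. It is unevenly spread over the groups, so its effect and that of the group are partly mixed in fits that use it. The 8 members and all gene lists were chosen with earlier results of these data known, and Cd63 is named in the study. Besides the members, at most 5 genes of a list with the lowest adjusted p in either DMSO comparison were named, with any that did not pass beside them, and the 5 nearest profiles of Cd63 and Cd9. RefSeq windows came from GRCm38.p6 and were matched by symbol for 8 of 8 members. Figures were drawn with matplotlib 3.10.9.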

Additional observations from a re-analysis of the deposited data

Results flagged for a closer look

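In 5 of the 48 sets of values, 1 mouse lay apart from the rest of its group by Dixon's criterion, which chance exceeds in about 1 in 20 sets. Cd63 was at 2293 TPM in DMSO-treated C118F mouse 1, against 1307 in the next, and this mouse also had a mesangial marker sum of 3188 TPM. Cd9 was at 167 TPM in DMSO-treated H77L mouse 6, against 38.6 in the next. The same mouse had the lowest Cd81 of its group, 1849 TPM against 2594, and the lowest podocyte marker sum, 6216 TPM. Cd9 was at 76.8 TPM in bortezomib-treated C118F mouse 2, the shallowest library, against 23.7 in the next. Cd82 was at 1876 TPM in DMSO-treated C118F mouse 4, against 1690 in the next. What sets these mice apart was not tested.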

How the results depend on the processing

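Over 43 member results, 271 of 301 values under another setting kept their direction and their side of the threshold, 22 lost and 6 gained a passing p, and 2 changed sign. Leaving out 1 mouse at a time gave 552 values, of which 496 kept both, 45 lost and 7 gained a passing p, and 4 changed sign. The calls of Cd63 and Cd82 in the 4 comparisons with WT held throughout. With the mouse number as a covariate, 0 members passed the stricter cutoffs in H77L mice under DMSO, since the Cd63 change was 1.96, and 3 members passed in C118F against WT mice under bortezomib, as also without the filter on low values. For H77L mice with against without bortezomib, 0 members passed without the filter and with all 35 mice in 1 fit, and from 0 to 2 when 1 mouse was left out. For C118F against H77L mice under bortezomib, 0 passed without the filter and with all 35 mice in 1 fit, 1 with the mouse number, and from 1 to 2 when 1 mouse was left out. The causes were not tested. Without 1 mouse the Cd9 difference between H77L and WT mice under bortezomib ran from -0.15 to 0.40. Without the mice with high marker sums, the change of WT mice with bortezomib was 0.035 for Cd63 and 0.10 for Cd9. No paired analysis was possible because the labels give each mouse a number of its own, and the replicate numbers used here were assigned in order within a group and pair no mice. TPM without counts gives no counting error, and a Cd9 value below 1 TPM rests on few reads.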
